A study of Mus musculus with 16 samples.

Results

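AMP-activated protein kinase (AMPK) is the energy sensor of the cell, and the PGC-1 coactivators with the factor Tfam set the making of mitochondria. The genes described here are the AMPK subunits Prkaa1, Prkaa2, Prkab1, Prkab2, Prkag1 and Prkag2, the AMPK-activating kinase Stk11 (LKB1), the coactivators Ppargc1a and Ppargc1b, and Tfam. They were listed by symbol, and no threshold on their values was used. Of the 10 genes, 9 had rows among the 18111 symbols of the deposited table, and Prkaa1, the other catalytic subunit, is not analysed here. The samples were primary cells from wild type B6 mice, cultured and measured on 16 Illumina bead arrays, with 4 arrays in each of 4 groups. Islets received 10 nM FK866 and control islets received 0.1% DMSO. Hepatocytes received 200 nM FK866 and control hepatocytes 0.1% DMSO, and every culture was treated for 48 h. FK866 inhibits NAMPT, the enzyme of NAD salvage from nicotinamide, and the series was made to see what NAD depletion does to expression. Islets are a mixture of endocrine and other cells, the FK866 dose differed between tissues, and the labels do not say whether arrays came from separate animals.

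AMPK is a complex of a catalytic alpha, a scaffolding beta and a nucleotide-sensing gamma subunit. It is switched on when AMP rises relative to ATP and when LKB1 phosphorylates its alpha subunit, and it then slows anabolic pathways. The PGC-1 proteins do not bind DNA themselves but coactivate nuclear receptors and respiratory factors such as NRF1 and GABP. Those factors raise Tfam, which packages and transcribes mitochondrial DNA. In liver PGC-1 alpha is induced by fasting through CREB and drives gluconeogenesis and fatty acid oxidation, and in beta cells mitochondrial ATP production couples glucose to insulin release.

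The promoters of 3 genes are shown for reference: Prkaa2 and Prkab2 lay on opposite sides between the tissues, and the Tfam promoter is a textbook target of GABP. No result on expression below rests on these promoters. The windows of 300 bases span the annotated start, on the strand of the gene, from RefSeq on GRCm38.p6. Windows of 9 of the 10 listed genes were searched for motifs, and that of Ppargc1b was not. Capitals mark any match, on either strand, to the core TGCGCA of the NRF1 motif, the GABP motif CCGGAAG or the core TGACG of the CREB element. The Prkaa2 window is chr4:105109849-105110148 on the minus strand, the Prkab2 window chr3:97657962-97658261 on the plus strand, and the Tfam window chr10:71237995-71238294 on the minus strand.
Prkaa2: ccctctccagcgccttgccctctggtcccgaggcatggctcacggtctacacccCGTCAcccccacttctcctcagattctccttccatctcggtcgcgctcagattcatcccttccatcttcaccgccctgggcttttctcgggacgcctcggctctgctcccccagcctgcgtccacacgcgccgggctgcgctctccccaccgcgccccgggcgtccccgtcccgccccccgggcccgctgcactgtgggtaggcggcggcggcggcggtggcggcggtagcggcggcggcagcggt
Prkab2: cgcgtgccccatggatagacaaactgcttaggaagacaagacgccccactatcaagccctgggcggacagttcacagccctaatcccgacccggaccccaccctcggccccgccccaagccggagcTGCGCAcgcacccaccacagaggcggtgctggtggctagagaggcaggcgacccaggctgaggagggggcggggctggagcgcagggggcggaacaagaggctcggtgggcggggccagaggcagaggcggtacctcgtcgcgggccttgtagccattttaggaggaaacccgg
Tfam: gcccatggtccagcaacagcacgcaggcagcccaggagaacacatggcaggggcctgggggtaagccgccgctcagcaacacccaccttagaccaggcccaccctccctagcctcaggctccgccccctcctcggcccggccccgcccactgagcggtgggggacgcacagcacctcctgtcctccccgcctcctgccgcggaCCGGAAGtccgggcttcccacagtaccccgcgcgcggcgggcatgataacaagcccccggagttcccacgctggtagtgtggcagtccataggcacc
The Tfam window held the GABP motif at bases 204 to 210, a motif present in 8.86% of 32851 promoter windows of the same length. The Prkaa2 window held the CREB core on the opposite strand at bases 55 to 59, as 20.8% of all windows do. The Prkab2 window held the NRF1 core, which reads the same on both strands and is in 7.76% of all windows, at bases 127 to 132. The 3 motifs share no position in these windows. These are matches of letters and were not tested as binding sites.

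Values are normalized log2 signals, and levels of different genes are not compared because each probe has its own brightness. A probe was called detected at a detection p under 0.05. Detected probes numbered 11018 to 11846 per array. Islet arrays had a median signal of 26.9 to 33.1, other than the pair numbered 2 with 18.0 (FK866) and 15.4 (control), and hepatocyte arrays one of 27.1 to 30.1. Those islet arrays also correlated less with the other islet arrays, at a median r of 0.959 (FK866) and 0.916 (control) against 0.984 to 0.993. Their summed signal of endothelial markers was 4741 (FK866) and 4811 (control), against 2233 to 2931 on the other islet arrays, while the median log2 difference of these markers from the other arrays was 0.347 (FK866) and -0.125 (control), with Cdh5 and Kdr undetected in islets. Fibroblast and stellate cell markers had a median log2 difference of 0.78 (FK866) and 1.06 (control), with Lum and Tagln undetected in islets. Alpha, delta and PP cell markers lay lower, at medians of -0.768 (FK866) and -0.333 (control) and sums of 106580 (FK866) and 127500 (control), against 142120 to 155260 on the other islet arrays. Of the acinar markers, 5 of 5 measured were detected on control islet array 3, with a summed signal of 915, against 153 to 303 on the other islet arrays. Beta cell markers had a summed signal between 122770 and 140630 in islets and between 629 and 782 in hepatocytes. In hepatocytes Ins2, Nkx6-1 and Pdx1 were undetected, while 3 or 4 of the 7 beta cell markers were detected on each array. Of the 6 hepatocyte markers measured, Apoa1, Serpina1a, Cyp2e1 and Mup1 were undetected on every islet array. The other 2, Ttr and Hnf4a, were detected there. The summed signal of the hepatocyte markers was 13165 to 47424 in islets and 67493 to 84364 in hepatocytes. Because arrays 2 stand apart, the members' islet differences and the list medians are given with and without them, and the part of the other cell types in them was not tested. In these bulk samples, fewer cells of a type and less RNA per cell cannot be told apart.

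Between the tissues, islets had less of the catalytic subunit Prkaa2 and more of both beta subunits, of Prkag2, of Stk11 and of Ppargc1b. Of the 8 members tested, 5 passed an adjusted p of 0.05 between FK866 islets and FK866 hepatocytes (limma with Benjamini-Hochberg adjustment over all 9968 genes), 4 higher and 1 lower. Of all genes tested, 63.1% passed in the same comparison (33.9% higher and 29.2% lower). Between control islets and control hepatocytes 6 of 8 members passed, 5 higher and 1 lower, where 66.1% of all genes did (35% higher and 31% lower), so the members' share of 75% is near the background. One of those counted, Prkab2, reached the test through islets alone, where it is high, and had to differ. The results below are therefore about single genes and not about the members as a set.

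**Figure D1:**
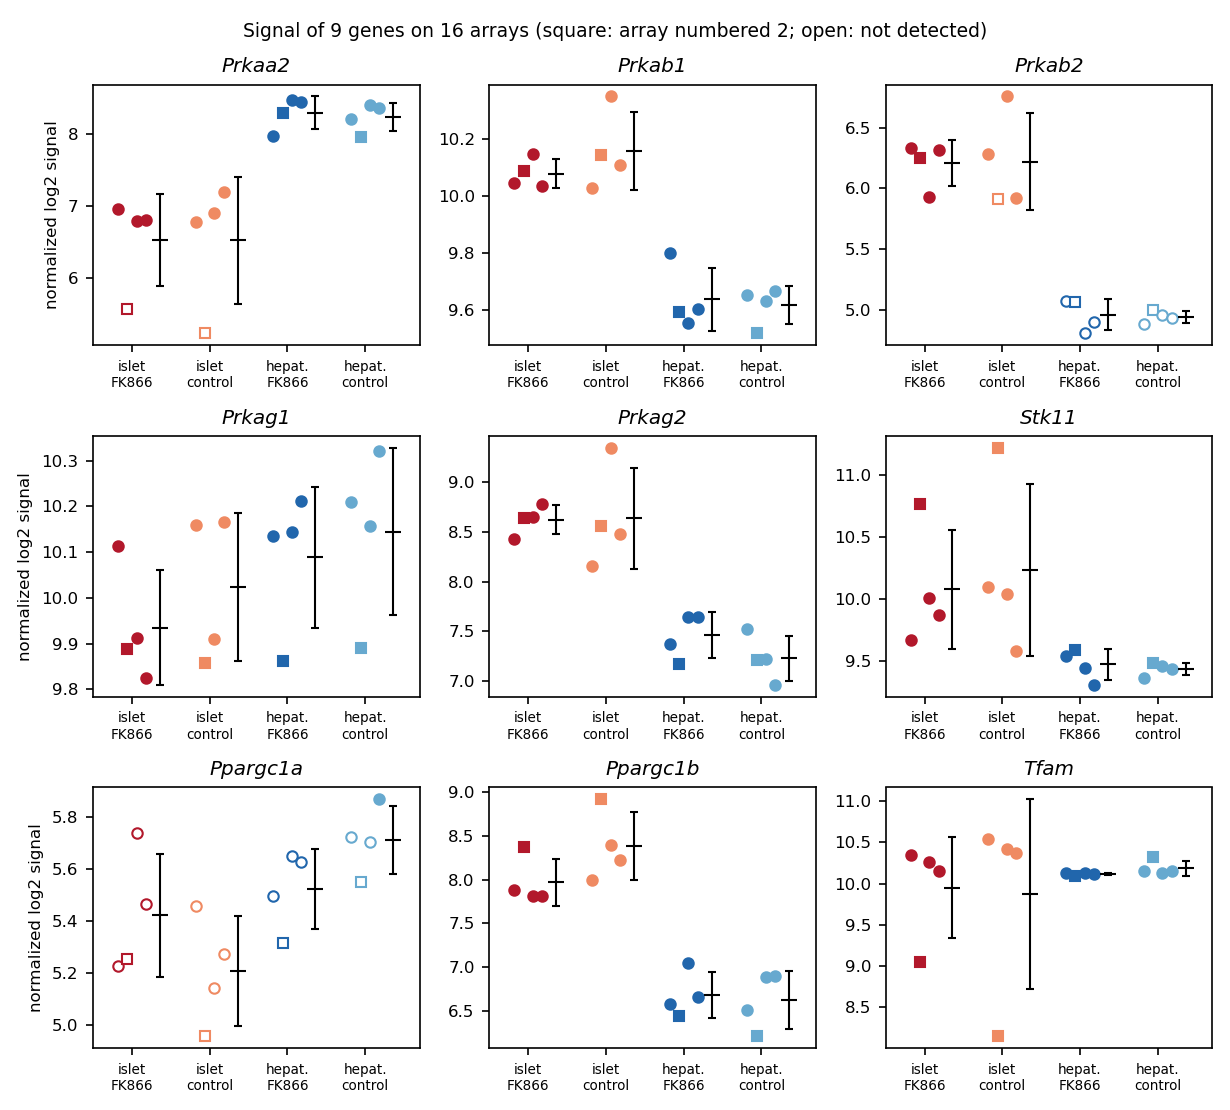
Normalized log2 signal (y axis, log2 units, one scale per panel) of the 9 measured genes on 16 arrays, grouped on the x axis as FK866 islets, control islets, FK866 hepatocytes and control hepatocytes. Squares are arrays numbered 2, open symbols arrays on which the probe was not detected, and bars the mean with its SD over 4 arrays; the islet arrays numbered 2 lie lowest for Tfam (9.05 and 8.15) and Prkaa2 (5.57 and 5.24).

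Prkaa2, the alpha 2 catalytic subunit, carries the kinase domain that LKB1 phosphorylates. Its signal was 6.95, 5.57, 6.79 and 6.80 on the FK866 islet arrays and 6.79, 5.24, 6.90 and 7.19 on the control islet arrays. On hepatocyte arrays it was 7.97, 8.28, 8.47 and 8.44 with FK866 and 8.21, 7.96, 8.40 and 8.35 in control. All 8 islet values lay below all 8 hepatocyte values, and islet arrays 2 were the lowest, with the probe undetected there. FK866 islets were lower than FK866 hepatocytes, with a log2 difference of -1.76 (SE 0.37, adjusted p = 5.66e-04, limma). The difference between control islets and control hepatocytes was -1.70 (SE 0.37, adjusted p = 7.13e-04, limma). Without islet arrays 2 these differences were -1.45 with FK866 and -1.28 in control (SE 0.14 each), both past the threshold. Of the genes tested, 65.3% did not overlap between the FK866 groups and 59.9% between the control groups. A second Prkaa2 probe was detected on none of the 16 arrays.

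Both beta subunits, which hold the complex together and bind glycogen, were higher in islets. Prkab1 was 10.04, 10.09, 10.15 and 10.03 on FK866 islet arrays and 10.03, 10.14, 10.35 and 10.11 on control islet arrays. FK866 hepatocytes had 9.80, 9.59, 9.56 and 9.60 and control hepatocytes 9.65, 9.52, 9.63 and 9.67. The tissues did not overlap at either treatment, although the difference was under 1 log2 unit. It was 0.44 (SE 0.11, adjusted p = 0.0026, limma) between the FK866 tissues and 0.54 (SE 0.11, adjusted p = 4.84e-04, limma) between the control tissues, and without islet arrays 2 it was also 0.44 with FK866 and 0.54 in control (SE 0.10 each). With signals scaled to the same median in place of quantile normalization, the Prkab1 difference between FK866 tissues was 0.40 with an adjusted p of 0.0973 in limma.

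Prkab2 was detected on 7 of 8 islet arrays and on 0 of 8 hepatocyte arrays. Its signal was 6.34, 6.25, 5.93 and 6.32 on FK866 islet arrays and 6.28, 5.91, 6.76 and 5.92 on control islet arrays. FK866 hepatocyte arrays gave 5.07, 5.06, 4.80 and 4.90 and control hepatocyte arrays 4.88, 5.0, 4.95 and 4.93, all not above background. The tissues did not overlap. Because hepatocytes give only an upper bound, Prkab2 was at least 1.18-fold higher in FK866 islets than in FK866 hepatocytes and at least 1.20-fold higher in control islets than in control hepatocytes. The bounds set islet means against the lowest detected signal on each hepatocyte array. The adjusted p was 1.02e-05 with FK866 and 7.73e-06 in control (limma), and both calls held without islet arrays 2. Because the gene passed the filter on detection only through islets, these p-values are no support beyond the detection calls themselves.

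The gamma subunits bind AMP, ADP and ATP. Prkag1 did not pass between the tissues, at -0.15 (SE 0.14, 95% interval -0.44 to 0.13, adjusted p = 0.338, limma) with FK866 and -0.12 (SE 0.14, 95% interval -0.41 to 0.17, adjusted p = 0.442, limma) in control. The difference without islet arrays 2 was -0.14 with FK866 and -0.07 in control (SE 0.13 each). It ranged from 9.83 to 10.17 on islet arrays and from 9.86 to 10.32 on hepatocyte arrays, which overlap. Prkag2 did differ. Its signal was 8.42, 8.64, 8.65 and 8.78 on FK866 islet arrays and 8.16, 8.56, 9.34 and 8.48 on control islet arrays, against 7.37, 7.17, 7.65 and 7.65 on FK866 hepatocyte arrays and 7.52, 7.21, 7.22 and 6.96 on control hepatocyte arrays. The tissues did not overlap, and control islets spread over the widest range. FK866 islets exceeded FK866 hepatocytes by 1.16 (SE 0.21, adjusted p = 1.95e-04, limma) and control islets exceeded control hepatocytes by 1.40 (SE 0.21, adjusted p = 2.88e-05, limma). With islet arrays 2 left out these were 1.16 with FK866 and 1.43 in control (SE 0.23 each). The highest Prkag2 and Prkab2 values were those of control islet array 3, on which the acinar markers were detected, and without it Prkag2 differed by 1.16 between control tissues.

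Stk11 encodes LKB1, the kinase upstream of AMPK. It was 9.67, 10.77, 10.01 and 9.87 on FK866 islet arrays, 10.10, 11.22, 10.04 and 9.58 on control islet arrays, 9.54, 9.59, 9.44 and 9.30 on FK866 hepatocyte arrays and 9.36, 9.48, 9.46 and 9.43 on control hepatocyte arrays. Islet arrays 2 were the highest of their groups, and at either treatment the tissues did not overlap. The difference was 0.61 (SE 0.29, adjusted p = 0.0747, limma) between FK866 tissues and 0.80 (SE 0.29, adjusted p = 0.0218, limma) between control tissues, so over all arrays Stk11 passed between the control tissues and not between the FK866 tissues. The FK866 difference minus the control difference was -0.19 (SE 0.40, adjusted p = 1, limma), so the 2 were not shown to differ (-0.09, SE 0.18, without islet arrays 2). Without islet arrays 2 it was smaller and passed at both treatments, at 0.38 (adjusted p = 0.0157) with FK866 and 0.47 (adjusted p = 0.0040) in control by limma (SE 0.13 each). When only the 8 arrays compared were fitted, the calls lay the other way, at 0.61 with an adjusted p of 0.0347 between FK866 tissues and 0.80 with an adjusted p of 0.0516 between control tissues (limma). With median scaling Stk11 also passed between FK866 tissues (0.57, adjusted p = 0.0274, limma), and without control islet array 2 alone it did not pass between control tissues (0.47, adjusted p = 0.0565, limma).

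**Figure D2:**
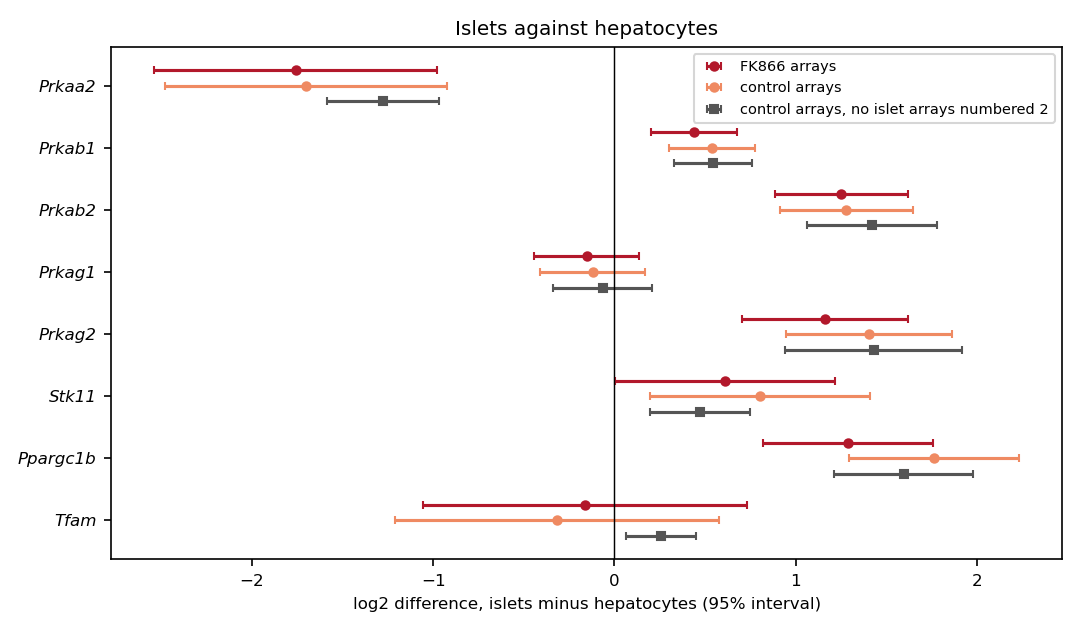
Log2 difference of islets minus hepatocytes (x axis, points with 95% intervals) for the 8 tested genes on the y axis, between FK866 arrays (dark red), between control arrays (orange) and between control arrays after leaving out the islet arrays numbered 2 (grey squares). Prkaa2 lies below 0 in all 3, Prkab1, Prkab2, Prkag2 and Ppargc1b above, and the Tfam estimate moves across 0, at -0.32 with and 0.26 without those arrays.

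Among the coactivators, Ppargc1b (PGC-1 beta), which in liver also promotes lipid synthesis and secretion, had the largest excess in control islets among the members detected in both tissues. Its signal was 7.88, 8.37, 7.81 and 7.81 on FK866 islet arrays, 8.0, 8.92, 8.40 and 8.22 on control islet arrays, 6.58, 6.44, 7.05 and 6.66 on FK866 hepatocyte arrays and 6.51, 6.21, 6.88 and 6.90 on control hepatocyte arrays. The tissues did not overlap at either treatment, and array 2 was the highest of both islet groups. The difference was 1.29 (SE 0.22, adjusted p = 9.42e-05, limma) between FK866 tissues and 1.76 (SE 0.22, adjusted p = 3.37e-06, limma) between control tissues. Without islet arrays 2 it was 1.16 with FK866 and 1.60 in control (SE 0.18 each).

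Ppargc1a (PGC-1 alpha) was detected on 1 of 16 arrays, a control hepatocyte array, and was not tested. Its signal was 5.23, 5.25, 5.74 and 5.47 on FK866 islet arrays and 5.46, 4.96, 5.14 and 5.27 on control islet arrays. It was 5.50, 5.32, 5.65 and 5.63 on FK866 hepatocyte arrays and 5.72, 5.55, 5.70 and 5.87 on control hepatocyte arrays. The values lie near background, so no fold is given between any of the groups, and these arrays do not show a level of this coactivator.

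Tfam was 10.35, 9.05, 10.26 and 10.15 on FK866 islet arrays, 10.54, 8.15, 10.42 and 10.37 on control islet arrays, 10.13, 10.09, 10.13 and 10.11 on FK866 hepatocyte arrays and 10.15, 10.32, 10.12 and 10.15 on control hepatocyte arrays. In each islet group 3 arrays lay above all hepatocyte arrays of that treatment, and array 2 lay below them all. With every array included, Tfam did not pass, at -0.16 (SE 0.42, adjusted p = 0.751, limma) with FK866 and -0.32 (SE 0.42, adjusted p = 0.519, limma) in control. Without islet arrays 2 the sign turned, to 0.14 (SE 0.09, adjusted p = 0.177, limma) with FK866 and 0.26 (SE 0.09, adjusted p = 0.0166, limma) in control. The direction of the Tfam difference therefore rests on arrays 2. Without them 6 of 8 members passed between FK866 tissues, where 75.8% of all genes did, and 7 of 8 between control tissues, where 77.2% did. A second Tfam probe, detected on all 16 arrays, gave -0.56 between control tissues with every array included.

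The neighbours of these genes in the pathways were taken from lists. Of the upstream AMPK kinases, LKB1 partners and folliculin genes, 7 of 9 tested were called higher in control islets and 0 called lower. The median log2 difference of the 9 was 1.39, beside 0.08 over all genes. Of all genes 66.1% were called in this comparison, 35% higher and 31% lower, and the counts of all 7 lists are read against those shares. Sesn1, a stress-induced sestrin that promotes AMPK activity, averaged 9.65 in control islets and 7.25 in control hepatocytes, a difference of 2.40 (SE 0.14). The folliculin gene Flcn (2.16, SE 0.13) and its partner Fnip1 (1.88, SE 0.13), which bind AMPK, were also higher. Of the AMPK-related kinases that LKB1 activates, 5 of 8 were called higher and 0 called lower (median 0.90). They included Nuak1 (2.15, SE 0.33), and Brsk2 and Mark1, which were undetected on all control hepatocyte arrays and at least 2.59-fold and 1.02-fold higher in control islets. Of the AMPK substrates, 8 of 9 were called higher and 0 called lower (median 1.01). Mff, whose call is described below as not firm, is 1 of the 8. Pfkfb2, a bifunctional enzyme that makes and degrades the glycolytic activator fructose 2,6-bisphosphate, was undetected on control hepatocyte arrays and at least 35.4-fold higher in control islets. The bounds of Brsk2, Mark1 and Pfkfb2 hold only for the brightest probe and the main processing. Across the alternatives on the log2 scale the difference lay between 3.01 and 5.44 for Pfkfb2. It lay between 0.44 and 1.83 for Brsk2 and between 0.68 and 1.49 for Mark1. The glucose-responsive factor Mlxipl was higher by 2.54 (SE 0.58) and Gbf1, a Golgi exchange factor, by 1.80 (SE 0.35). Without islet arrays 2 the counts called higher were 7 of 9, 6 of 8 with 1 called lower, and 8 of 9. The medians were then 1.34, 0.46 and 0.73 beside 0.06 over all genes, of which 77.2% were called.

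The 4 lists of PGC-1 partners, PGC-1 targets and mitochondrial genes went both ways. Of the PGC-1 transcription partners and related coregulators, 3 of 17 were called higher and 5 called lower in control islets (median -0.04). The liver nuclear receptor Hnf4a was lower by a log2 difference of -2.23 (SE 0.26), and Mef2c was higher at 2.23 (SE 0.49). Gabpa, the subunit of GABP that binds the motif shown for Tfam, averaged 5.83 ± 0.53 in control islets and 7.79 ± 0.29 in control hepatocytes (SD, n = 4 each), a difference of -1.95 (SE 0.25). Its probe was detected on only 2 of the 4 control islet arrays. Across the alternatives on the log2 scale the Gabpa difference lay between -2.12 and -0.76. A link of Gabpa to the level of Tfam was not tested. Of the genes of mitochondrial DNA transcription and maintenance, 5 of 15 were called higher and 3 called lower (median 0.19). The mitochondrial topoisomerase Top1mt was lower at -2.68 (SE 0.24), while the mitochondrial thymidine kinase Tk2 (1.87, SE 0.20) and the termination factor Mterf (1.14, SE 0.27) were higher. Of the metabolic PGC-1 targets, 1 of 11 was called higher and 5 called lower (median -0.30). Acadm, an enzyme of fatty acid oxidation, was lower at -2.89 (SE 0.29) and the receptor Esrra at -1.25 (SE 0.13), and the Krebs cycle subunit Idh3a was higher at 0.96 (SE 0.13). Of the fission, fusion and mitophagy genes, 1 of 7 was called higher and 2 called lower (median -0.19). Opa1, which fuses the inner membrane, was undetected on control islet arrays and at least 2.12-fold lower there, and the mitophagy receptor Bnip3l was lower at -0.71 (SE 0.19). The Opa1 bound holds only for its brightest probe and the main processing. Across the alternatives on the log2 scale the Opa1 difference lay between -1.24 and -0.45. The fission factor Mff was at 0.49 (SE 0.20, adjusted p = 0.0408, limma), which was -0.02 with the mean of its probes and -0.03 with the deposited scores. For Mff the adjusted p in limma was 0.208 with median scaling, 0.0501 with no detection filter, 0.0948 in the 8 control arrays alone and up to 0.118 without single arrays, so this call is not a firm one. Every gene named in these lists had an adjusted p under 0.05 in limma, and each kept its direction without islet arrays 2. Brsk2, Mark1, Pfkfb2, Mef2c and Opa1 reached the test mainly through the tissue where they are high, so their p-values and their place in the counts are no support beyond the detection calls. The same holds for Camkk1 (1.39, also the median of its list) and Eef2k (0.57), which were tested for FK866 in islets and not in hepatocytes. It also holds for G6pc (-0.79), tested for FK866 in hepatocytes and not in islets. These genes are among those called in their lists. Without islet arrays 2 the 4 lists, in the order given above, had 5 genes called higher and 4 called lower, 9 and 5, 2 and 5, and 1 and 3. Their medians were then 0.10, 0.44, -0.11 and -0.17, so the median of the PGC-1 partners changed sign.

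**Figure D3:**
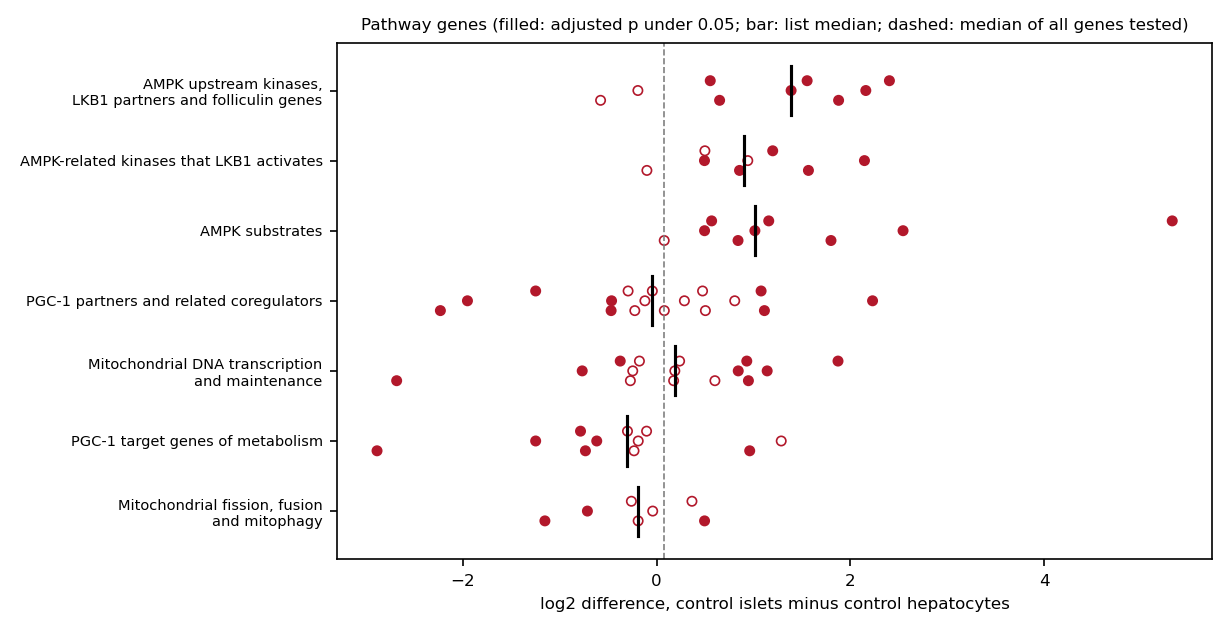
Log2 difference of control islets minus control hepatocytes (x axis) for each tested gene of 7 pathway lists (rows), filled where the adjusted p was under 0.05, with a bar at the list median and a dashed line at 0.08, the median of all genes tested. The first 3 lists, of AMPK regulators, related kinases and substrates, have medians of 1.39, 0.90 and 1.01, and the 4 lists below them lie between -0.30 and 0.19.

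With FK866, no member passed the threshold in either tissue. In islets 0 of 8 tested members passed, as did 0% of 8827 genes (limma, 120 of them, 1.36%, at an unadjusted p under 0.05, none a member). The replicate numbers were taken to pair the arrays within a tissue, from their shared deviations and not from the labels. In islets these correlations, 0.524 to 0.918 for the same number, overlapped those of other numbers, -0.835 to 0.651. With the number as a block 4 genes passed in islets (0.0453%), again none a member. In hepatocytes 0 of 7 tested members passed, as did 0% of 8476 genes (limma, 143 of them, 1.69%, at an unadjusted p under 0.05, none a member), and 0 passed with the block.

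In islets the largest difference was that of Ppargc1b, at -0.42 (SE 0.24, 95% interval -0.97 to 0.13, adjusted p = 1.00, limma). The pairwise differences of FK866 minus control islets were -0.12, -0.55, -0.59 and -0.42 for pairs 1 to 4, lower in 4 of 4 pairs, although the groups overlapped because array 2 of the FK866 islets was high. With the replicate block the SE was 0.14, the unadjusted p 0.0147 and the adjusted p 0.350 (limma), where 11.6% of all genes had an unadjusted p under 0.05, so the gene does not pass. Without arrays 2 the difference was -0.37 (SE 0.13, adjusted p = 0.728, limma). In hepatocytes Ppargc1b differed by 0.06 (SE 0.18, 95% interval -0.35 to 0.46). The change in islets minus the change in hepatocytes was -0.47 (SE 0.31, adjusted p = 1.00, limma), and -0.43 (SE 0.25) without islet arrays 2. With the block its adjusted p was 0.341 in limma, where 0.0502% of genes passed and 10.7% had an unadjusted p under 0.05, as Ppargc1b did with 0.0128. The summed signal of the hepatocyte marker list was 13165 to 30890 in FK866 islets and 24993 to 47424 in control islets. Of its measured members only Ttr and Hnf4a were detected in islets, so the sum is not shown to measure hepatocytes there. The part of the lower sum in the Ppargc1b difference was not tested.

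Of the AMPK genes, in islets Prkaa2 differed by 0.00 (SE 0.48, 95% interval -1.09 to 1.09), and by -0.11 (SE 0.14) without arrays 2. The other AMPK subunits ranged from -0.09 for Prkag1 to -0.01 for Prkag2, and Stk11 was at -0.15 (SE 0.37). Without arrays 2 these subunits ranged from -0.14 for Prkab2 to -0.04 for Prkag2, and Stk11 was at -0.05 (SE 0.17). Tfam differed by 0.08 (SE 0.56, 95% interval -1.19 to 1.35). Its pairs were -0.19, 0.90, -0.16 and -0.22, so the positive mean came from pair 2, and without it Tfam differed by -0.19 (SE 0.12, 95% interval -0.46 to 0.08). These unpaired intervals of Prkaa2 and Tfam over all islet arrays reach past a change of 1 log2 unit either way. With the replicate block, a pairing taken from the data, the 95% intervals were narrower. They were -0.35 to 0.35 for Prkaa2 and -0.39 to 0.55 for Tfam. In hepatocytes the spread was smaller. The largest difference was that of Prkag2 at 0.22 (SE 0.14, 95% interval -0.09 to 0.54, adjusted p = 1, limma), with pairs of -0.14, -0.04, 0.41 and 0.66. The other 6 tested members lay between -0.07 for Tfam (SE 0.07) and 0.06 for Prkaa2 (SE 0.14).

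**Figure D4:**
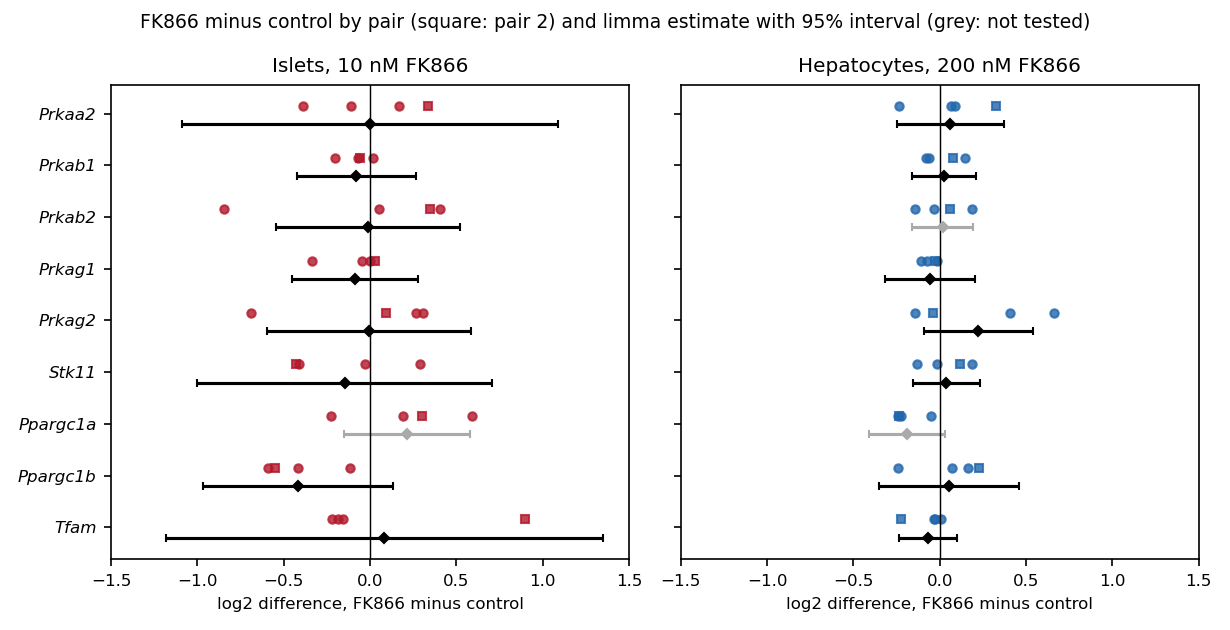
Log2 difference of FK866 minus control (x axis) for the 9 genes (y axis) in islets (left, 10 nM) and hepatocytes (right, 200 nM), with coloured points for the 4 pairs of arrays with the same number (squares for pair 2) and diamonds for limma's estimate with its 95% interval, grey where the gene was not tested. Every interval drawn for a tested gene includes 0, and in islets Ppargc1b is lower in 4 of 4 pairs.

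In the pathway lists FK866 gave 0 called genes in either tissue, in all 7 lists, with and without the replicate block and without the arrays numbered 2. In islets the AMPK substrates had a median of -0.22, beside -0.00 over all genes, with 7 of 9 below 0 and none called. Without arrays 2 their median was -0.22 with 8 of 9 below 0. Among them Srebf1, a factor of lipid synthesis, was at -0.57 (SE 0.19, unadjusted p = 0.0151) and Mlxipl at -0.38 (SE 0.75), neither past the adjusted threshold of limma. The AMPK-related kinases had a median of -0.19 (Nuak1 -0.60, SE 0.43, and Nuak2 -0.55, SE 0.78), and -0.07 without arrays 2. The upstream list had a median of 0.04 (Sesn1 -0.37, SE 0.16, and Sesn2 0.30, SE 0.27), and the PGC-1 partners 0.04 (Mef2c -0.58, SE 0.65, and Gabpa 0.54, SE 0.30). The mitochondrial DNA list had a median of -0.01. In it Polg2, the accessory subunit of the mitochondrial DNA polymerase, was at -0.56 (SE 0.15, unadjusted p = 0.0053, adjusted p = 1.00, limma), and Tfb1m was at 0.24 (SE 0.66). The PGC-1 targets had a median of 0.00 (Pdk4 -0.72, SE 0.73, and Sdhb 0.31, SE 0.37) and the fission and fusion genes one of -0.03 (Fis1 0.32, SE 0.41, and Bnip3l -0.26, SE 0.25). Without arrays 2 the median of the upstream list turned to -0.04, with 3 of 9 genes above 0 and 6 below, none called. The medians of the PGC-1 partners, the mitochondrial DNA list, the PGC-1 targets and the fission and fusion genes were then 0.085, 0.0092, -0.02 and -0.09. The median over all genes was -0.01.

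In hepatocytes the medians of the 7 lists lay between -0.00 and 0.04. The genes with the largest differences in their lists were Camkk2 (-0.24, SE 0.13), a calcium-activated AMPK kinase, and Map3k7 (0.18, SE 0.17), Nuak2 (0.25, SE 0.14) and Snrk (-0.09, SE 0.09), Tbc1d1 (0.20, SE 0.15) and Mlxipl (-0.10, SE 0.15), and Lpin1 (-0.17, SE 0.17) and Hnf4a (-0.13, SE 0.21). In the mitochondrial lists they were Tfb1m (-0.09, SE 0.13) and Mterfd1 (0.05, SE 0.13), Cycs (-0.23, SE 0.14) and Esrra (-0.09, SE 0.08), and Mfn2 and Bnip3l (-0.12, SE 0.10). Mfn2, which fuses the outer mitochondrial membrane, was at 0.17 (SE 0.07) with an unadjusted p of 0.0418 and an adjusted p of 1 in limma, and was the only tested gene of the 7 lists under 0.05 before adjustment.

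Over the 16 arrays the signals most like that of Prkaa2 were those of Osbpl9 (Pearson r = 0.990), Sntb2 (0.988) and the gene listed as EG622339 (0.987). Within groups, as deviations from the group means, these correlations were 0.976, 0.959 and 0.957, and without islet arrays 2 they were 0.982, 0.973 and 0.981. The arrays share the contrast of the tissues and the low signal of arrays 2, and the values are a description.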

How the data were processed

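RNA of FK866 islets, control islets, FK866 hepatocytes and control hepatocytes was labelled with biotin for Illumina arrays, per the labels' protocols. The deposited intensity of each probe is linear, background-subtracted by its values and not normalized between arrays. Beside each intensity stands the probe's detection p-value, per the file headers. The deposited normalized table holds a score per gene symbol, which by its values is the log10 signal of a gene, floored at 1 and scaled to mean 0 and SD 1 per array. Which scanner software, annotation and normalization were used is not given in the sources used. The third deposited table held the same scores for fewer genes and was not used.

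Probes carry no gene names, so each symbol was matched to the probe, or mean of up to 4 probes, whose log10 signals gave its scores on all 16 arrays within 3e-08. This named 16409 of 18111 symbols and 22601 of 25697 probes. Islet scores were first moved by 1 row over a stretch of 5015 symbols that holds none of the members.

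In R 4.3.3 with limma 3.58.1, neqc corrected background from the detection p-values with an offset of 16, quantile normalized and took log2. The 8 arrays of a tissue were fitted for FK866 and all 16 arrays for the tissue comparisons and the difference between FK866 changes. The brightest probe stood for a gene, tested when detected (detection p under 0.05) on at least 4 arrays of the fit. Calls had a Benjamini-Hochberg adjusted p under 0.05 over all genes tested. Where a gene was undetected in a group, a fold is given as a lower bound for its brightest probe. The fit was tested on simulated data. No arrays were identical, and their number limits the precision. Naming and figures used Python 3.11.15, numpy 2.4.6 and matplotlib 3.10.9.

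Deviations from group means of same-numbered arrays correlated across genes at 0.346 to 0.574 in hepatocytes and 0.524 to 0.918 in islets (other FK866 and control arrays -0.332 to 0.053 and -0.835 to 0.651), so the numbers were taken to pair arrays within a tissue, from the data and not from the labels. Across tissues the same numbers correlated at -0.105 to 0.081. The labels name no separate animals or cultures, so the spread behind the p-values may be technical. The members and the gene lists were chosen with earlier results of these data known. The members are always named; of each other list, per comparison described, up to 3 called genes with the largest change are named, or otherwise 2; and for Prkaa2 and Ppargc1a the 3 genes with the highest correlation, of which those for Ppargc1a are not reported here.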

Additional observations from a re-analysis of the deposited data

Results flagged for a closer look

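In a group of 4 arrays, a member's highest or lowest value was looked at again when its gap to the nearest other array took more of the range of the group than Dixon's 95% critical value allows. This held for 5 of 36 groups, where chance gives about 1 in 20, and each of the 5 arrays is numbered 2. Tfam had 9.05 on FK866 islet array 2, against 10.15 to 10.35 on the others, and 8.15 on control islet array 2, against 10.37 to 10.54. Tfam was also high on control hepatocyte array 2, at 10.32 against 10.12 to 10.15. Prkaa2 had 5.57 on FK866 islet array 2, against 6.79 to 6.95, and Ppargc1b had 8.37 on the same array, against 7.81 to 7.88.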

How the results depend on the processing

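For the members and list genes named, 847 of 881 values outside the single-array omissions kept their direction and their side of the threshold, 25 changed sign, 4 gained a call and 5 lost it. Between the tissues, Prkaa2, Ppargc1b and Prkag2 kept direction and call under every alternative that tested them. Prkab2 did too, but it reached the test only through islets, so its kept call is no support beyond the detection calls. With detection required on every array, 3 members passed between FK866 tissues, and 3707 genes did, against 3865 between control tissues, since fewer genes and members were tested. All genes called for FK866 numbered 2 in hepatocytes with the deposited scores, 4 in islets with the replicate block and 1 with the block and no arrays 4; for the difference between FK866 changes they numbered 5 with the block, 3 without islet arrays 2 and 0 to 1 when single arrays were left out. Across tissues the replicate number did not pair arrays; as a block it brought Stk11 between FK866 tissues to an adjusted p of 0.0284 (limma) and changed no other member's call. Within tissues the block changed no member's call. The following changed sign, uncalled except Tfam between control tissues, and the cause was not tested. For FK866 in hepatocytes, Prkaa2 was -0.043 with the mean of its probes, -0.0669 with the scores and -0.0245 without arrays 2, Snrk was 0.003 with the mean of its probes and Ppargc1b -0.0036 without arrays 2. For FK866 in islets, Prkaa2 was -0.0198 with an offset of 50, -0.0752 with median scaling and -0.0156 with the scores, Prkag2 0.0324 with median scaling and 0.0138 with the scores, and with the scores Prkab2 was 0.0106 and Sesn1 0.0072. Without arrays 2, with or without the block, Prkaa2 was -0.11, Tfam -0.19 and Tfb1m -0.14; with the block, Prkaa2 was -0.0558 without arrays 1, and Prkab2 0.25 and Prkag2 0.22 without arrays 3. Between control tissues Mff was -0.0236 with the mean of its probes and -0.0314 with the scores. Without islet arrays 2 Tfam was 0.14 between FK866 tissues and 0.26 between control tissues. The alternatives that leave out both arrays 1, both arrays 3 or both arrays 4 with the block, that leave out both arrays 2 with the block, and that fit only the 8 arrays compared were chosen after seeing the data. Leaving out single arrays gave these lowest and highest differences where signs turned. In hepatocytes with FK866 they were -0.0288 and 0.17 for Prkaa2, -0.0321 and 0.0504 for Prkab1, -0.14 and 0.0215 for Prkag1, -0.0022 and 0.0953 for Stk11, -0.0841 and 0.15 for Ppargc1b, -0.0388 and 0.15 for Mterfd1, -0.19 and 0.0226 for Mlxipl and -0.26 and 0.0605 for Hnf4a. In islets with FK866 they were -0.45 and 0.33 for Prkaa2, -0.12 and 0.16 for Prkab2, -0.17 and 0.23 for Prkag2, -0.38 and 0.18 for Stk11, -0.48 and 0.38 for Tfam, -1.08 and 0.18 for Nuak2, -0.95 and 0.26 for Mlxipl, -1.01 and 0.0352 for Mef2c, -0.46 and 0.56 for Tfb1m, -0.0472 and 0.49 for Sdhb and -0.0772 and 0.54 for Fis1. For Tfam they were -0.30 and 0.14 between FK866 tissues and -0.54 and 0.26 between control tissues. Signal near background limits Ppargc1a in both tissues and Prkab2 in hepatocytes.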
